A study of Danio rerio with 24 samples.

Results

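The retina and the whole embryo of the zebrafish young (yng) mutant were compared at 36 hours post fertilization (hpf), to find which eye transcripts still mark the mutant retina. The comparison took 6 of the 24 Affymetrix zebrafish arrays of the series. It set 3 arrays of dissected yng retina against 3 arrays of whole yng embryo, chosen by sample title. The young mutation lies in smarca4a, which encodes Brg1, the motor subunit of SWI/SNF chromatin remodellers, and all fish were labelled as strain AB. The other groups used beside these are WT retina and WT embryo at 36 hpf, and the same tissues at 52 hpf, with 3 arrays each. Per the labels, mutants were staged by their wild-type siblings, each array was hybridized with RNA of a separate pool, and 33 ng of RNA per pool was labelled. Pools of yng retina at 36 hpf held 20 retinas, and pools of the other 36 hpf groups held 10 retinas or embryos. The embryo pools contained eyes as well, so a transcript confined to the eye is still read in the embryo.

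In vertebrates a small set of transcription factors, among them the rx, six3, six6 and pax6 genes, specifies the eye field and keeps retinal cells in a dividing progenitor state. Progenitors then leave the cell cycle in a set order, with retinal ganglion cells first, under proneural factors such as Atoh7 and signals of the Notch pathway. Later-born amacrine, horizontal, bipolar, photoreceptor and Müller glial cells follow, and the layers of the retina form as these cells differentiate.

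The deposited values are intensities per probe set, and they are given below by array in the order of replicates 1, 2 and 3. Differences are yng retina minus yng embryo on the log2(intensity + 16) scale after quantile normalization over all arrays, with their standard error and a limma p-value adjusted over 15502 probe sets. Retina arrays were dimmer than embryo arrays as deposited. The median intensity was 151 to 154 on yng retina arrays and 223 to 229 on yng embryo arrays, and 256 to 310 probe sets on yng retina arrays and 37 to 50 on yng embryo arrays were listed at 0. Normalization therefore moved the median difference of all probe sets to 0.40, against -0.05 as deposited. For this reason a probe set is said to have risen or fallen below only where its adjusted p was under 0.05 in the same direction both after normalization and as deposited. The log2 ratio of the 3' to the 5' GAPDH control probe set was 2.88, 3.18 and 2.60 on yng retina arrays. On yng embryo arrays it was 3.21, 3.56 and 2.89, higher at each replicate. What this does to single probe sets was not tested. The yng retina array of replicate 1 carried a recorded filling error in its second staining step. The yng arrays were all processed on another fluidics station than the WT arrays, and retina and embryo arrays on different modules, so station and genotype, and module and tissue, cannot be told apart.

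The mutated gene and the markers of other tissues were read first, as a check of the labels. The brightest smarca4a probe set read 1003, 1083 and 1115 in yng retina, against 767, 832 and 822 in yng embryo. In WT fish it read 3658, 3439 and 3581 in retina and 3312, 3336 and 3456 in embryo. All yng arrays were thus below all WT arrays, and the yng retina was above the yng embryo on every array, by 0.76 ± 0.08 on the log2 scale (adjusted p = 2.03e-08). Where this probe set lies relative to the mutation was not examined.

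Across all probe sets, 3310 (21.4%) rose and 3603 (23.2%) fell in the yng retina relative to the yng embryo. After normalization alone the counts were 8033 higher (51.8%) and 3603 lower (23.2%), and as deposited alone they were 3310 higher (21.4%) and 5202 lower (33.6%). Both counts thus depended on the scale. The share of calls that were higher was 69.0% after normalization, 38.9% as deposited and 70.7% after scaling arrays to a common median. Differences of at least 2-fold on both scales were found for 561 higher probe sets (3.62%) and 2343 lower ones. After normalization 11636 probe sets (75.1% of all) were called in either direction. On the log2 scale, 11569 of them had the same sign on all 3 hybridization days. They were called on these same arrays, so the choice itself favoured a like sign.

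Signal of muscle, skin and yolk genes was largely missing from the dissected mutant retina. The skeletal muscle genes had a summed intensity of 4160 to 4726 in yng retina, against 261062 to 275818 in yng embryo, and 47 of 51 measured members fell, with a median difference of -5.94. The brightest probe set of the muscle actin gene actc1b and the skin keratin gene krt4 were listed at 0 on all 3 yng retina arrays, and read 16627, 17757 and 16782 (actc1b) and 10906, 10537 and 12156 (krt4) in yng embryo. The apolipoprotein gene apoa1a, made by liver and yolk syncytium, read 2.52, 15.6 and 21.1 in yng retina, against 8892, 10894 and 10046 in yng embryo. Among other lists, 29 of 50 liver, gut and yolk genes, 41 of 49 skin, notochord, cartilage and fin genes, 23 of 29 blood genes, 27 of 42 hox genes and 14 of 16 genes of the periocular mesenchyme, cornea and eye vessels fell, and 1, 2, 1, 2 and 0 of them rose. Over all probe sets, 23.2% fell and 21.4% rose. The collagen gene col1a2 of the periocular list read 25.3, 20.5 and 12.2 in yng retina, against 4942, 5028 and 4789 in yng embryo. Summed blood and brain signal was reduced by less. The blood genes summed to 9560 to 12826 in yng retina, against 49122 to 52081 in yng embryo. The brain, hindbrain, spinal cord and ear genes summed to 9271 to 9905, against 22857 to 24802, and 29 of these 56 genes fell and 6 rose. The dissected mutant tissue therefore carried the marker pattern its label names, with little signal from muscle, skin or yolk.

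Genes of eye and forebrain regulators were among those with the largest rises. The forebrain and retinal factor gene foxg1b read 4089, 3704 and 3715 in yng retina, against 647, 611 and 580 in yng embryo. These groups lay far apart, with a difference of 2.96 ± 0.09 (adjusted p = 3.04e-17). The 15 genes with the largest rises also held the retinal homeobox genes rx2, pax6b, vsx1, otx5, six7 and six3b, the amacrine and horizontal cell factor gene foxn4, the Wnt receptor gene fzd8b, the cell cycle repressor gene e2f7, the histone methyltransferase gene kmt2a and the immediate early gene fosab. This ranking was over probe sets, and 5 of the 15 genes stood in it on a dimmer probe set. The brightest one differed by 1.47 for foxn4 (3.40 for the ranked one), 2.37 for fosab (3.06), 0.34 for ciao2b (3.66), 0.51 for aamp (3.19) and -1.08 for asphd2, whose ranked probe set was listed at 0 on all yng embryo arrays. The 15 genes with the largest falls were muscle, skin, liver and yolk genes.

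**Figure D1:**
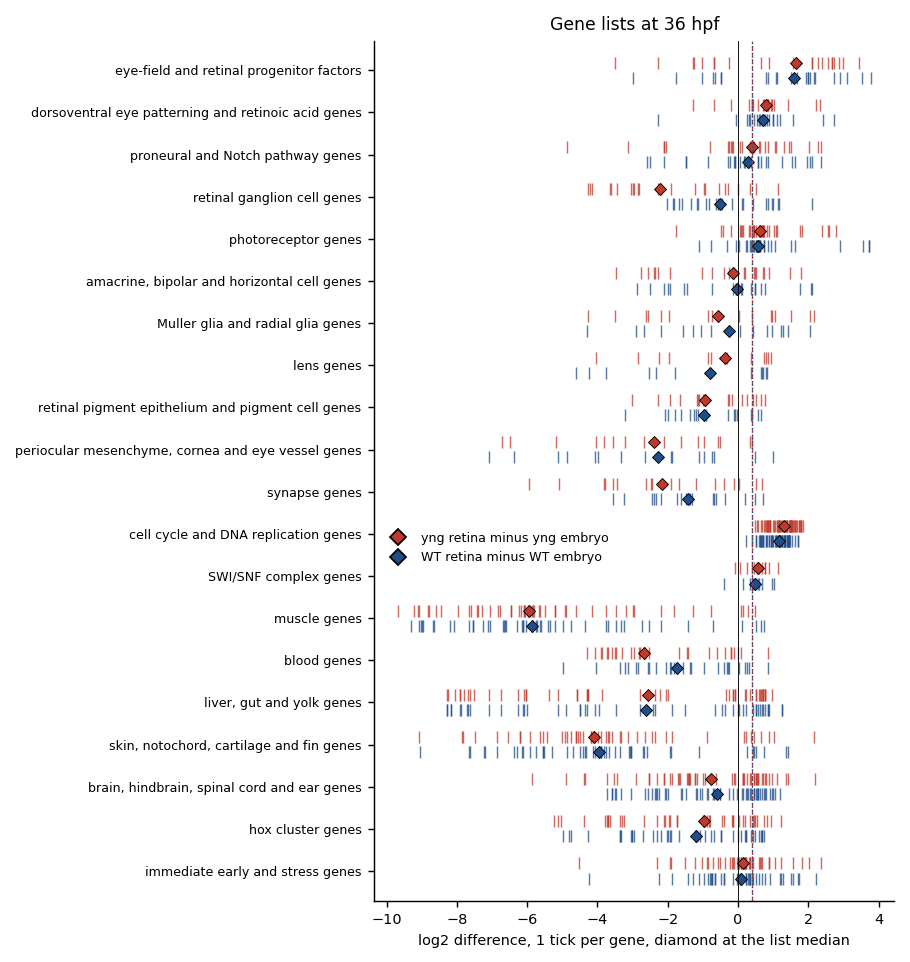
Log2 difference of retina minus embryo at 36 hpf after quantile normalization (horizontal axis) for the measured members of 20 gene lists (rows), yng above WT in each row. Ticks are genes, diamonds are list medians, and the vertical lines are the medians of all probe sets, 0.40 in yng and 0.39 in WT. The eye-field and cell cycle lists have the highest medians in yng, and the ganglion cell list is the eye list whose yng median, -2.23, lies farthest below its WT median of -0.52.

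Eye-field and retinal progenitor factors had the highest median of the 9 eye lists in the mutant retina. Of 24 measured members, 16 (66.7%) rose and 7 (29.2%) fell, beside 21.4% and 23.2% of all probe sets. The median difference was 1.65 after normalization and 1.32 as deposited, beside 0.40 and -0.05 over all probe sets. The retinal homeobox gene rx2, which marks progenitors and later photoreceptors, read 628, 773 and 778 in yng retina, against 77.9, 59.3 and 95.2 in yng embryo. The groups did not overlap, and the difference was 3.44 ± 0.15 (adjusted p = 3.07e-14). The paired box gene pax6b read 1867, 1926 and 2605 in yng retina, against 318, 393 and 309 in yng embryo, a difference of 2.99 ± 0.16 (adjusted p = 8.08e-13). The six6b gene, a homeobox factor of the optic vesicle, read 2049, 1856 and 2122 in yng retina, against 406, 391 and 395 in yng embryo. Each of these genes was several-fold brighter on every retina array than on any embryo array.

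The remaining members that rose were six7 (2.75), vsx1 (2.87), six3b (2.68), nr2e1 (2.55), six3a (2.38), six6a (2.28), rx3, hmx4, pax6a (1.66), rx1 (1.65), otx2b (1.55), sox2 (0.87) and mab21l1 (0.65). The 7 that fell were the homeobox cofactor genes meis1a, meis1b and meis2a, the cell fate gene mab21l2, the homeobox genes lhx9 and otx1, and tlx2, which is no established eye gene. They differed by -3.49 to -0.68. The lens and horizontal cell factor gene prox1a did not pass, at 75.7, 106 and 60.9 in yng retina, against 105, 242 and 113 in yng embryo. Its retina and embryo ranges overlapped.

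The early eye-field gene rx3 marked the mutant retina more strongly than the WT retina. It read 481, 472 and 398 in yng retina, against 128, 150 and 127 in yng embryo, and 157, 266 and 229 in WT retina, against 138, 155 and 122 in WT embryo. The yng retina arrays were above all others, and the tissue difference was larger in yng by 1.00 ± 0.20 (interaction, adjusted p = 0.00725). This interaction, yng minus WT, was higher for 131 (0.845%) and lower for 236 (1.52%) of all probe sets, and rx3 was the one eye-field gene past the threshold. With replicate as a block, 1 eye-field gene passed as higher and 2 as lower, beside 2.16% and 3.1% of all probe sets. In the photoreceptor factor gene six7 the yng retina read 536, 379 and 316, against 846, 1347 and 669 in WT retina, and did not overlap it. That retina difference was -1.10 (adjusted p = 0.00697), while the interaction of six7 did not pass (adjusted p = 0.188).

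**Figure D2:**
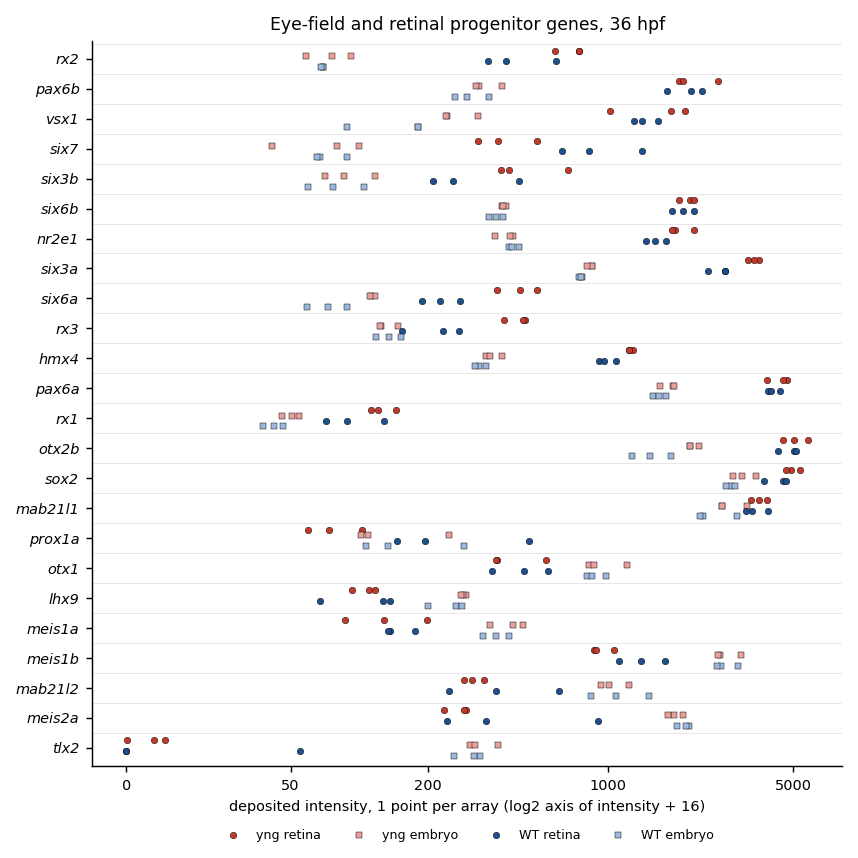
Deposited intensity of the eye-field list genes on each array at 36 hpf, on an axis of log2(intensity + 16), in yng retina, yng embryo, WT retina and WT embryo (colours, 3 arrays each). For rx2 the 3 yng retina arrays, 628 to 778, sit above the 3 yng embryo arrays, 59.3 to 95.2.

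Dorsoventral patterning and retinoic acid genes were also higher in the mutant retina, but by less. Of 20 measured members, 10 (50%) rose and 2 (10%) fell, beside 21.4% and 23.2% of all probe sets. The median difference was 0.79 after normalization and 0.31 as deposited. The dorsal retina factor gene tbx2b read 3192, 3930 and 4142 in yng retina, against 816, 1000 and 1010 in yng embryo. The groups were widely separated, with a difference of 2.33 ± 0.14 (adjusted p = 3.7e-12). The retinoic acid binding protein gene crabp1a rose by 2.22, the optic stalk gene pax2a by 1.41 and the dorsal signal gene bmp4 by 1.03. The members that fell were the retinoic acid degrading enzyme genes cyp26b1 (-1.29, adjusted p = 0.0347) and cyp26a1 (-0.68, adjusted p = 0.0112). For cyp26b1, 3 dimmer probe sets did not pass, at -1.07, 0.08 and 0.12. No member of this list passed the interaction with WT in either direction, while with replicate as a block pax2a passed as higher (0.78, adjusted p = 0.025) and aldh1a2 as lower (-0.84, adjusted p = 0.0108).

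Among proneural and Notch pathway genes, 9 of 29 measured members (31%) rose and 7 (24.1%) fell, beside 21.4% and 23.2% of all probe sets. The median was 0.41 after normalization and -0.01 as deposited, near the 0.40 and -0.05 of all probe sets. The proneural gene atoh7, needed for ganglion cell formation, read 3999, 3631 and 3602 in yng retina, against 1193, 848 and 882 in yng embryo. The difference was 2.27 ± 0.17 (adjusted p = 3.36e-10), with no overlap. In WT it read 5086, 4637 and 4096 in retina and 1533, 1129 and 1346 in embryo, and the interaction did not pass (0.23 ± 0.25, adjusted p = 0.905). The Notch ligand gene dlc read 2081, 2476 and 2928 in yng retina, against 582, 511 and 734 in yng embryo, and rose by 2.37 ± 0.13. The neurogenic factor genes neurod4 (2.01) and neurod1 (1.501) rose too.

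The members that fell furthest were the proneural genes ascl1b (-4.88) and neurod6b (-3.13), the receptor gene notch2 (-2.12) and the ligand gene jag1a (-2.11). The brightest probe set of notch2 stood for the gene here, and 2 dimmer ones differed by 0.32 and 0.56 without passing. Of the 29 genes, her2 and her6, members of the hairy and enhancer of split family, passed the interaction, higher in yng by 1.03 (adjusted p = 0.0318) and 0.84 (adjusted p = 0.044). With replicate as a block, 2 genes of the list passed as higher and 2 as lower, beside 2.16% and 3.1% of all probe sets. In her6 the retina minus embryo difference was 0.63 in yng (adjusted p = 0.00115, and 0.0955 as deposited) and -0.21 in WT.

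Of 32 measured photoreceptor genes, 10 (31.2%) rose and 2 (6.25%) fell in the mutant retina, beside 21.4% and 23.2% of all probe sets. The median was 0.63 after normalization and 0.09 as deposited. The 3 largest rises were in genes of transcription factors. The orthodenticle homologue otx5 read 948, 656 and 773 in yng retina, against 144, 198 and 99.4 in yng embryo, a difference of 2.78 ± 0.20 (adjusted p = 1.68e-10). The nuclear receptor gene nr2e3 read 1412, 823 and 926 in yng retina, against 267, 253 and 152 in yng embryo, and rose by 2.60. The thyroid hormone receptor gene thrb, used by cones, rose by 2.56. Retina arrays were above embryo arrays in each of the 3 genes, with replicate 1 the highest retina array. The members that fell were the retinol binding protein gene rbp4l (-1.75, adjusted p = 3.87e-10) and the recoverin gene rcvrn2 (-0.48, adjusted p = 0.0486). The call for rcvrn2 was lost with replicate as a block (adjusted p = 0.0517), and its dimmer probe set differed by 0.11 without passing.

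The cone-rod homeobox gene crx differed between the genotypes through its embryo value. It read 2747, 2394 and 2312 in yng retina, against 667, 681 and 466 in yng embryo. In WT it read 1958, 2573 and 1833 in retina, against 199, 187 and 190 in embryo. The yng retina thus lay near the WT retina (0.26, adjusted p = 0.415), while every yng embryo array was above every WT embryo array (1.60, adjusted p = 1.84e-06). The tissue difference was 2.39 ± 0.16 in yng and smaller than in WT by 1.34 ± 0.23 (interaction, adjusted p = 0.00177).

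Amacrine, bipolar and horizontal cell genes were mixed, with 3 of 23 measured members (13%) higher and 10 (43.5%) lower. Over all probe sets these shares were 21.4% and 23.2%. The median of the list was -0.13 after normalization and -0.59 as deposited. The 3 that rose were the neurogenic factor gene bhlhe22 (1.80), the forkhead gene foxn4 (1.47) and the glutamate receptor gene gria2b (0.88). Genes of inhibitory transmission and calcium binding fell, among them slc32a1, the vesicular GABA transporter (-3.47), calb2a (-2.56) and gad1b, a GABA-synthesizing enzyme (-2.38). The embryo level of neuronal genes also holds neurons outside the eye. In WT, 3 members of the list rose and 8 fell, beside 17% and 22.4% of all probe sets. The WT median was -0.02 after normalization. The amacrine and horizontal cell factor gene tfap2a read 409, 253 and 257 in yng retina, against 2849, 2692 and 2889 in yng embryo, and 1033, 1024 and 554 in WT retina. The yng retina arrays were the lowest of all, and the interaction was -1.31 ± 0.24 (adjusted p = 0.00297).

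Müller and radial glia genes were mixed as well, with 6 of 17 measured members (35.3%) higher and 9 (52.9%) lower. Both shares were above those of all probe sets, 21.4% and 23.2%. The transcription factor gene sox9a (2.17), the retinaldehyde binding protein gene rlbp1a (2.05), the gap junction gene gja1b (1.49) and the fatty acid binding protein gene fabp7a were among those that rose. The lipoprotein gene apoeb (-4.26), the carbonic anhydrase gene cahz (-3.51), the calcium binding gene s100b (-2.61) and gfap, the glial filament gene (-2.56), fell furthest. Of these, apoeb also stands on the liver, gut and yolk list and cahz on the blood list, so their embryo levels can hold other tissues. The median of the glia list was -0.57 after normalization. In WT, 4 members rose and 9 fell, beside 17% and 22.4% of all probe sets, with a median of -0.25.

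**Figure D3:**
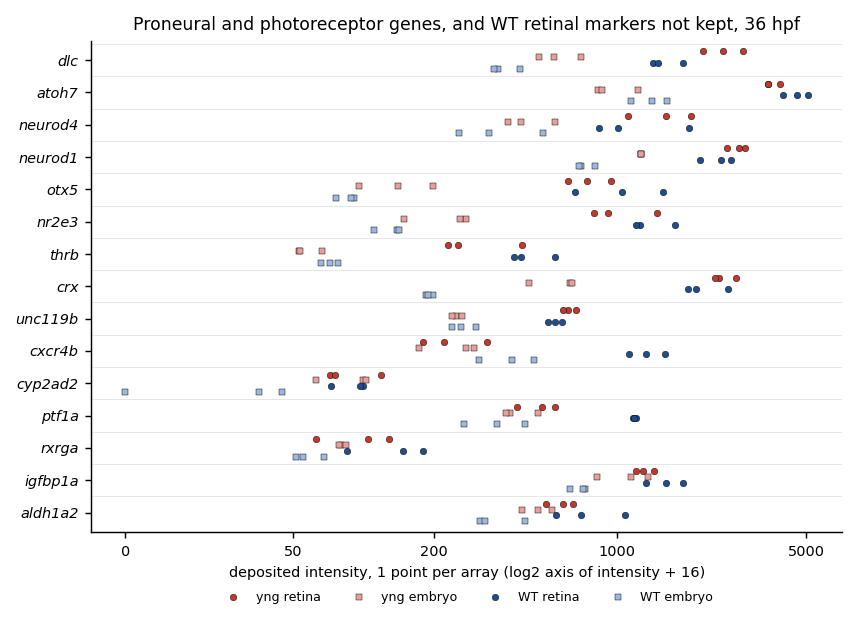
Deposited intensity on each array at 36 hpf, on an axis of log2(intensity + 16), for 9 proneural and photoreceptor genes that rose in the yng retina and, after them, 6 genes that marked the WT retina but did not pass as higher in the yng retina on both scales. For atoh7 the yng retina arrays read 3602 to 3999 and the yng embryo arrays 848 to 1193, whereas for cxcr4b the 2 yng groups overlap and the WT retina arrays stand apart at 1106 to 1512.

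The WT arrays, which are not those of the mutant comparison, gave a second way to choose retina markers. In WT, 297 probe sets (1.92%) were at least 2-fold higher in retina than in embryo on both scales. Of them, 285 (96%) were also higher in the yng retina on both scales by any amount, beside 21.4% of all probe sets. As deposited, 248 (83.5%) were higher there by at least 2-fold. None of the 297 was called lower in the yng retina as deposited. In the other direction, 561 probe sets were at least 2-fold higher in the yng retina. As deposited, 528 of them were higher in the WT retina too by any amount, 32 did not pass there and 1 was opposite. By at least 2-fold, 248 (44.2%) were higher in the WT retina.

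Of the 297, 12 probe sets did not pass in the yng retina on both scales, and 7 of these carry 1 gene symbol. After normalization alone 9 of the 12 were higher in the yng retina, and as deposited 0 were. Because the 297 were chosen for a high WT difference, which the interaction subtracts, the choice itself favoured a lower interaction in them. The chemokine receptor gene cxcr4b, which is used by young ganglion cells and by migrating precursors elsewhere, read 323, 182 and 219 in yng retina, against 268, 175 and 288 in yng embryo. In WT retina it read 1282, 1106 and 1512, against 403, 300 and 488 in WT embryo. The yng groups overlapped while the WT groups did not. The yng difference was 0.50 after normalization (adjusted p = 0.033) and -0.02 as deposited (adjusted p = 0.951), and the interaction was -1.59 ± 0.29 (adjusted p = 0.00286). The amacrine and horizontal cell specifier gene ptf1a read 585, 420 and 522 in yng retina, against 395, 381 and 503 in yng embryo, and 1148, 1172 and 1156 in WT retina, against 352, 263 and 452 in WT embryo. Its yng groups overlapped as deposited but not after normalization, with a difference of 0.25 as deposited (adjusted p = 0.222) and 0.71 after normalization (adjusted p = 0.000569). Its interaction was -1.41 ± 0.23 (adjusted p = 0.00106).

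The other named probe sets of the 12 were aldh1a2, a retinoic acid synthesizing enzyme of the dorsal retina, the retinoid receptor gene rxrga, the cytochrome P450 gene cyp2ad2 and 2 probe sets of the growth factor binding protein gene igfbp1a. Their interactions did not pass (adjusted p = 0.0536 to 0.648). With replicate as a block those of aldh1a2 (-0.84, adjusted p = 0.0108) and of the brighter igfbp1a probe set (-0.85, adjusted p = 0.0331) did. The gene aldh1a2 read 540, 629 and 687 in yng retina, against 438, 507 and 571 in yng embryo, and 593, 731 and 1070 in WT retina, against 302, 317 and 450 in WT embryo. The yng groups overlapped as deposited, with a difference of 0.28 (adjusted p = 0.263), against 0.72 after normalization (adjusted p = 0.00376). The interaction of -0.84 had an adjusted p of 0.18 without the block.

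Ganglion cell genes had the lowest median of the 9 eye lists in the mutant retina. Of 24 measured members, 1 (4.17%) rose and 19 (79.2%) fell, beside 21.4% and 23.2% of all probe sets. The median was -2.23 after normalization and -2.69 as deposited. In WT, where 17% of all probe sets rose and 22.4% fell, 4 rose and 13 fell, with a median of -0.52. Many of these genes are neuronal genes of brain and spinal cord too, so the embryo level holds other neurons. The summed intensity of the list was 3527, 2860 and 2779 in yng retina, against 17830, 18113 and 17614 in yng embryo, and 12442, 11738 and 9767 in WT retina, against 17887, 18006 and 20660 in WT embryo. The embryo sums lay close together in the 2 genotypes, and the yng retina sums were below every WT retina sum. In bulk RNA, fewer cells of a type and less RNA per cell cannot be told apart.

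One WT retina array bears on every comparison with WT. Replicate 1 of WT retina carried brain genes that the other WT retina arrays did not, such as the hypothalamic gene otpb, at 920, 20.8 and 5.84 over replicates 1, 2 and 3. The summed intensity of 56 brain, hindbrain, spinal cord and ear genes was 11562 on that array, against 8581 and 8591 on the others of its group, and 9271 to 9905 in yng retina. Without that array the interaction was lower for 17 ganglion cell genes, against 16 with it. Over all probe sets it was lower for 216, against 236 with it, and higher for 135, against 131 with it. Leaving out WT retina replicate 3 instead gave 364 lower and 143 higher probe sets.

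The interaction was lower in yng for 16 of the 24 ganglion cell genes and higher for 0, where 1.52% of all probe sets were lower and 0.845% higher. The gene lists were chosen with earlier results of these data known, so this count describes the list and is no independent test. The Iroquois factor gene irx4a read 27.8, 0 and 0 in yng retina, against 405, 408 and 322 in yng embryo. In WT it read 756, 691 and 356 in retina, against 359, 409 and 437 in embryo. The retina was thus the lowest group in yng, while it overlapped the embryo in WT, and the interaction was -4.61 ± 0.39 (adjusted p = 3.35e-07).

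The neuronal intermediate filament gene inab read 30, 28.5 and 27 in yng retina, against 385, 549 and 507 in yng embryo, and 373, 581 and 410 in WT retina. Its interaction was -3.09 ± 0.27 (adjusted p = 6.19e-07). The neuropeptide gene adcyap1b read 25.9, 18.9 and 18.8 in yng retina, against 562, 720 and 607 in yng embryo, and 323, 395 and 295 in WT retina. In both genes the yng retina arrays stood below every other array, by a wide margin. The LIM homeobox gene isl1a, which is switched on as ganglion cells form, read 684, 401 and 496 in yng retina, against 1420, 1137 and 1469 in yng embryo. In WT it read 2200, 2227 and 2042 in retina, against 1215, 1177 and 1667 in embryo. For isl1a the direction itself differed, -0.93 ± 0.16 in yng and 1.00 ± 0.16 in WT (interaction -1.93 ± 0.22, adjusted p = 2.04e-05).

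In 3 further members of the list the yng retina arrays were also the lowest. The microtubule regulator gene stmn2a read 48.1, 41.7 and 39.5 in yng retina, against 1697, 1505 and 1332 in yng embryo, and 546, 331 and 218 in WT retina. The actin binding gene tmsb read 59, 25.7 and 36.2 in yng retina, against 1250, 1416 and 1423 in yng embryo, and 682, 523 and 396 in WT retina. The RNA binding protein gene elavl4 read 14.1, 24 and 0 in yng retina, against 750, 773 and 492 in yng embryo, and 243, 90.9 and 50.5 in WT retina. In each of them WT retina replicate 1, the array that carried brain genes, was the highest of its group. Their interactions were -2.43 (adjusted p = 2.25e-05), -2.88 (adjusted p = 2.23e-06) and -2.58 (adjusted p = 0.00857).

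Other members with a lower interaction were gap43, stmn4, elavl3, irx1a, robo2, alcama, irx4b, eomesa and cxcr4b, with gap43 at -1.90 and alcama at -1.45. The ganglion and amacrine cell homeobox gene barhl2 was the member that rose in the mutant retina. It read 377, 302 and 336 in yng retina, against 192, 252 and 191 in yng embryo, a difference of 1.15 ± 0.18 (adjusted p = 8.05e-06), and its WT difference was 1.18.

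**Figure D4:**
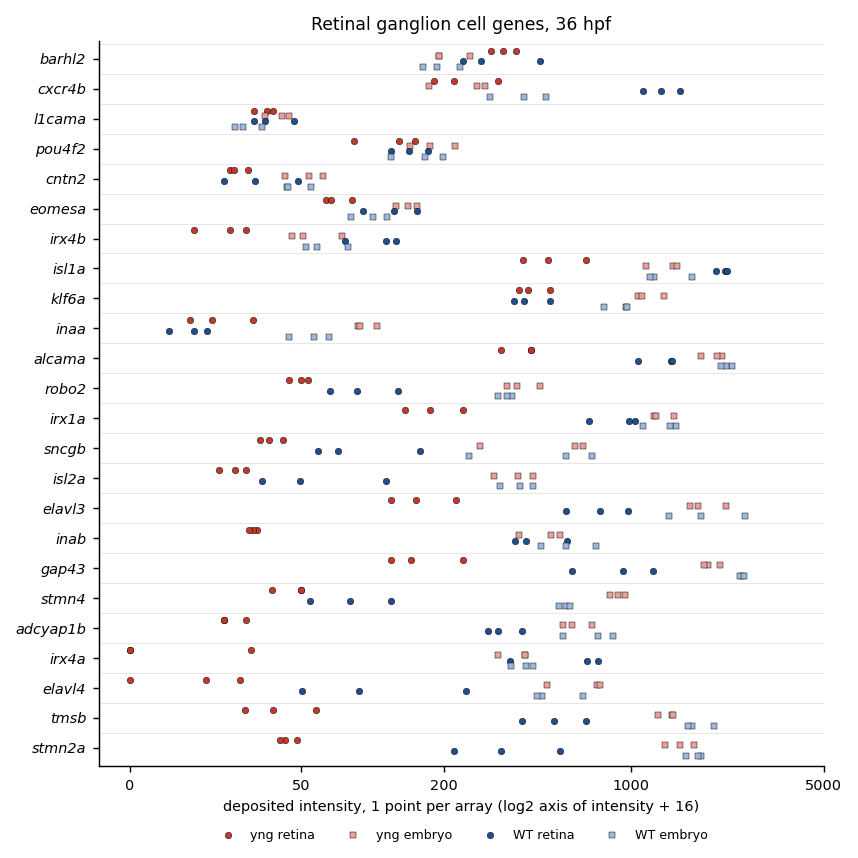
Deposited intensity of the 24 measured ganglion cell genes on each array at 36 hpf, on an axis of log2(intensity + 16), in yng retina, yng embryo, WT retina and WT embryo. For stmn2a the yng retina arrays read 39.5 to 48.1 and the WT retina arrays 218 to 546, and for barhl2 the yng retina arrays, 302 to 377, are above the yng embryo arrays.

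Synapse genes showed a like picture with fewer interactions. Of 18 measured members, 0 rose and 14 (77.8%) fell in the yng retina, beside 21.4% and 23.2% of all probe sets. In WT 0 rose and 15 (83.3%) fell, beside 17% and 22.4% of all probe sets. The median was -2.17 in yng and -1.42 in WT. The interaction was lower for 5 members and higher for 1, beside 1.52% and 0.845% of all probe sets. The synaptic vesicle gene sypa read 55.2, 28.4 and 19.3 in yng retina, against 2332, 2219 and 2032 in yng embryo, and 751, 284 and 170 in WT retina. The calcium sensor gene syt1a read 41.2, 32.5 and 18.2 in yng retina, against 957, 893 and 758 in yng embryo, and 461, 345 and 207 in WT retina. In both genes the yng retina arrays were below all WT retina arrays, and WT retina replicate 1 was the highest of its group. The interactions were -2.64 ± 0.43 for sypa (adjusted p = 0.00109) and -2.32 ± 0.28 for syt1a (adjusted p = 3.13e-05).

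The retina and the embryo contributed unequally to the interaction. Between genotypes, 649 probe sets (4.19%) were higher and 759 (4.9%) lower in yng retina than in WT retina, and 431 (2.78%) were higher and 491 (3.17%) lower in yng embryo than in WT embryo. Among the 236 probe sets with a lower interaction, yng differed from WT in retina alone for 181, in embryo alone for 42, in both for 5 and in neither for 8. Among the 131 with a higher one, the counts were 49, 76, 3 and 3. With replicate as a block the interaction was lower for 481 (3.1%) and higher for 335 (2.16%). The yng and WT differences correlated at 0.965 (Pearson) across the 15502 probe sets, which share the normalization and the tissue contrast and are not independent.

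A pair of signalling genes marked the mutant retina more than the WT retina. The Wnt receptor gene fzd8b read 272, 247 and 269 in yng retina, against 41.3, 31.1 and 64.2 in yng embryo, and 26.8, 50 and 65.5 in WT retina, against 27.5, 32.5 and 21.8 in WT embryo. The yng retina stood apart from the other groups, with an interaction of 1.67 ± 0.29 (adjusted p = 0.00183). The growth factor gene fgf8a, made in the optic stalk and early retina, read 429, 388 and 551 in yng retina, against 132, 118 and 133 in yng embryo, and 90.1, 198 and 146 in WT retina. Its interaction was 0.99 (adjusted p = 0.0398), and did not pass without WT retina replicate 1 (adjusted p = 0.0968).

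**Figure D5:**
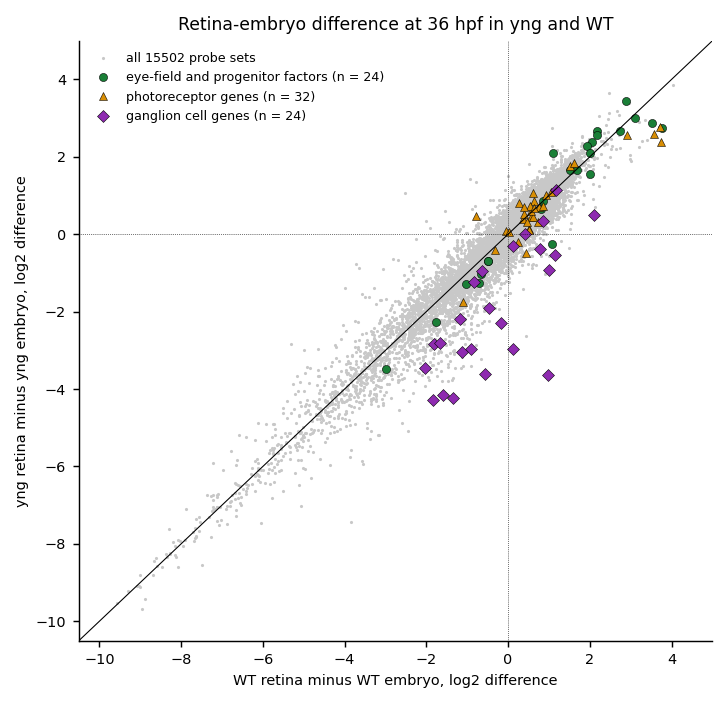
Log2 difference of retina minus embryo at 36 hpf in yng (vertical axis) against that in WT (horizontal axis), with 1 point per probe set and 3 gene lists coloured. Eye-field genes lie near the diagonal, and most ganglion cell genes lie below it, with list medians of -2.23 in yng and -0.52 in WT.

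Cell cycle and DNA replication genes rose almost as a whole. Of 58 measured members, 54 (93.1%) rose and 0 fell, beside 21.4% and 23.2% of all probe sets. In WT 51 rose and 0 fell, beside 17% and 22.4% of all probe sets. The median was 1.304 after normalization and 0.98 as deposited, and 1.17 in WT after normalization. The cyclin gene ccne1, which drives entry into S phase, read 790, 970 and 693 in yng retina, against 286, 338 and 272 in yng embryo, and rose by 1.84 ± 0.30 (adjusted p = 1.65e-05). The DNA replication genes orc1, orc2 and gmnn each rose by 1.80. No member passed the interaction, and with replicate as a block the replication factor gene rfc3 passed as higher (0.41, adjusted p = 0.0223). Subunits of the SWI/SNF complex were higher in 3 of 13 measured members (23.1%, near the 21.4% of all probe sets) on both scales, which were smarca4a, brd9 (1.15) and arid2 (0.78), and lower in 0.

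Among immediate early and stress genes, 9 of 44 measured members (20.5%) rose and 12 (27.3%) fell, near the shares of all probe sets, with a median of 0.13 after normalization and -0.25 as deposited. The brightest fosab probe set read 1580, 1691 and 1860 in yng retina, against 496, 475 and 310 in yng embryo, and 1943, 479 and 395 in WT retina. The yng retina arrays were alike, while WT retina replicate 1 stood far above its group. The transcription factor genes junba (1.83) and junbb (1.57) and the caspase gene casp8 (2.01) rose too, and the heat shock gene hsp90aa1.1, which is strong in muscle, fell by 4.51 on the log2 scale.

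Lens genes differed between the yng retina arrays. Of 13 measured lens genes, 0 rose and 6 (46.2%) fell, beside 21.4% and 23.2% of all probe sets. In WT 1 rose and 7 fell, beside 17% and 22.4% of all probe sets. The summed intensity of the lens genes was 3034, 2186 and 976 in yng retina, against 7452, 7562 and 7531 in yng embryo. The crystallin gene crybb1 read 1274, 868 and 192 in yng retina, against 2909, 3423 and 3087 in yng embryo. Lens signal was thus highest on yng retina replicate 1 and lowest on replicate 3. Of 19 measured pigment cell and retinal pigment epithelium genes, 0 rose and 11 (57.9%) fell, with a median of -0.93. In WT 0 of them rose and 11 fell as well, beside 17% and 22.4% of all probe sets. The melanin synthesis gene tyr read 88.9, 46.8 and 67.8 in yng retina, against 48.1, 39.2 and 71.8 in yng embryo, and these overlapped.

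Several markers read at 36 hpf were read again in other pools at 52 hpf. At that age rx2 averaged 315 ± 28.4 in yng retina and 49.9 ± 2.48 in yng embryo, and six6b averaged 2284 ± 117 in yng retina and 498 ± 34.9 in yng embryo (SD, n = 3 each). The factor gene crx averaged 6063 ± 155 in yng retina and 2475 ± 486 in yng embryo. All 3 remained higher in the retina, with differences of 2.83, 2.54 and 1.57. For stmn2a the means were 264 ± 27.8 in yng retina, 2466 ± 165 in yng embryo and 1308 ± 120 in WT retina. For irx4a they were 432 ± 41.3 in yng retina, 547 ± 54.3 in yng embryo and 3195 ± 84.6 in WT retina, and the yng retina and yng embryo did not differ past the threshold (0.13, adjusted p = 0.676). For isl1a they were 3248 ± 358 in yng retina and 2053 ± 112 in yng embryo, so that at 52 hpf the mutant retina was above the mutant embryo by 0.94 (adjusted p = 2.27e-05). Some WT retina markers that had not passed in yng at 36 hpf on both scales passed at 52 hpf. There ptf1a (1.77, adjusted p = 5.85e-09) and rxrga (2.43, adjusted p = 1.37e-09) were higher in yng retina on both scales. The gene aldh1a2 was lower on both (-0.93, adjusted p = 0.000454), and cxcr4b, cyp2ad2 and igfbp1a did not pass on both.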

How the data were processed

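Per the file headers, the deposited values are linear intensities, 1 for each probe set on each array. The probe summary and array scaling behind them are not stated in the labels or headers used here. Of 15617 probe sets, 115 controls were removed. Platform annotation gave 10795 probe sets 1 symbol, 135 several and 4572 none, and a list gene was represented by its brightest probe set, while the largest differences and interactions were ranked over probe sets. Intensities of all 24 arrays were quantile normalized, converted to log2(intensity + 16) and fitted with limma 3.58.1 in R 4.3.3, with a mean for each group (16 residual and 4.25 prior degrees of freedom). P-values come from two-sided moderated tests with Benjamini-Hochberg adjustment and a threshold of 0.05. They measure the spread between pools and arrays, and 3 arrays per group limit the precision.

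The comparison, its gene lists and the naming rule were chosen with earlier results of these data known, and the 2-scale call rule was added after the values were seen. Named were smarca4a, up to 15 genes each way with the largest difference, up to 5 each way with the largest interaction, and per list up to 4 each way plus up to 3 of each eye list that did not pass. Genes named outside this rule (the remaining eye-field members, and isl1a, ptf1a, aldh1a2, rxrga, cyp2ad2, igfbp1a, her2, her6, rfc3 and the other ganglion cell members with a lower interaction) were chosen after their values were seen. The tlx2 gene stands on the eye-field list by error and was kept in its counts.

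Replicate number follows the hybridization day at 36 hpf. Deviations from group means of same-numbered yng retina and yng embryo arrays correlated at 0.481, 0.502 and 0.432, so a fit with replicate as a block was run as an alternative. Other alternatives were intensities as deposited, median scaling, offsets of 1 and 64, removal of dim probe sets, limma's trend, only the groups compared, all probe sets of a gene, and leaving out each array. In simulated data with 50 changed probe sets per size, the fit called 34, 86, 100 and 100% of log2 differences of 0.5, 1, 2 and 4 for this comparison. It also called 9 unchanged probe sets. The changed ones were drawn from brighter probe sets. Unlike the data, the simulation had few changed probe sets, retina and embryo arrays of like brightness and independent noise, so these rates need not hold here. Python 3.11.15, pandas 2.3.3 and matplotlib 3.10.9 made the tables and figures.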

Additional observations from a re-analysis of the deposited data

Results flagged for a closer look

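For 24 of the genes named by rule, the retina minus embryo difference at 36 hpf itself differed between yng and WT by limma's interaction term (adjusted p under 0.05). The values below are yng minus WT on the log2 scale. Genes named outside the rule that also passed, such as rx3, isl1a and ptf1a, are not among the 24. Among ganglion cell genes the interaction was -4.607 for irx4a, -3.09 for inab, -3.052 for adcyap1b, -2.881 for tmsb, -2.579 for elavl4, -2.428 for stmn2a and -1.594 for cxcr4b. Among synapse genes it was -2.637 for sypa, -2.392 for cplx2a, -2.325 for syt1a and -2.165 for sv2bb. Among other neural and retinal genes it was -1.344 for crx, -1.319 for the glial gene s100b and -1.31 for tfap2a. The spectrin gene sptb, a red cell membrane component, had -0.9304.

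The interaction was higher for fzd8b (1.665), fgf8a (0.993) and smarca4a (0.4047). For smarca4a it did not pass as deposited (adjusted p = 0.217), nor on the dimmer probe set (0.18, adjusted p = 0.953). It was also higher for capn2l (2.947, on a dimmer probe set), aebp1b (2.598), col28a2a (2.476), fkbp5 (2.344), ctsll (2.183) and dcn (1.084). In capn2l, aebp1b, col28a2a, fkbp5 and ctsll the yng embryo was lower than the WT embryo, by -2.95, -2.68, -2.48, -2.65 and -2.17. For capn2l this holds for the dimmer probe set alone. The interaction of its brightest probe set was 0.31 (adjusted p = 0.922) and that of its remaining one -0.08 (adjusted p = 0.981).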

How the results depend on the processing

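The count of higher probe sets and list members rested on the scale, since retina arrays were dimmer as deposited, and the count of lower ones less so. How bright a probe must be to be read is unknown, because no detection calls were used, and dim probe sets carry the least certain differences. As deposited, 3310 probe sets were higher and 5202 lower in yng retina (8033 and 3603 after normalization), and 2633 were higher and 5254 lower in WT retina (7929 and 3479). The interaction was higher for 72 and lower for 112 probe sets with the 4 groups at 36 hpf alone, and higher for 335 and lower for 481 with replicate as a block (131 and 236 otherwise). Leaving out 1 array gave 183 to 364 lower ones, the most without WT retina replicate 3.

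After normalization alone, WT retina markers numbered 1734, of which 1697 were higher in yng retina. These counts were 297 and 285 as deposited, 2780 and 2614 with an offset of 1, and 865 and 853 with an offset of 64. The choice of markers on the WT difference favours a lower interaction. Of the 1734 markers, 11 (0.634%) had a lower interaction, beside 1.52% of all probe sets. As deposited it was 9 of 297 (3.03%), where 217 of the 15502 probe sets were lower. The count was 17 with an offset of 64, 19 after median scaling, 7 with the 4 groups alone and 37 with the block. It was 9 to 19 when 1 array was left out. The number of markers changed with the setting as well. A higher interaction was found for 4 (0.231%), beside 0.845% of all probe sets. It was found for 0 as deposited, 1 with an offset of 64, 1 with the 4 groups alone and 26 with the block. Without 1 array the count was 2 to 8.

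List members higher in yng retina, as deposited and likewise on both scales, numbered 10 for dorsoventral (16 after normalization), 9 for proneural (15), 1 for ganglion cell (2), 10 for photoreceptor (21), 3 for amacrine (8), 0 for lens (5), 0 for pigment (4), 0 for synapse (1), 3 for SWI/SNF (11), 0 for muscle (1), 1 for liver (12), 2 for skin (6), 6 for brain (18), 2 for hox (8) and 9 for immediate early genes (17). Lower members as deposited numbered 11 for proneural (7), 5 for photoreceptor (2), 1 for SWI/SNF (0) and 19 for immediate early genes (12). With all probe sets of a gene, higher members were 4 for ganglion cell, 11 for Müller (7), 1 for periocular (0), 4 for muscle, 2 for blood (1) and 13 for hox genes. Without dim probe sets they were 2 for pigment, 0 for blood, 5 for liver and 11 for brain. Median scaling gave 2 higher synapse genes, 2 higher blood genes and 1 lower dorsoventral gene (2). The groups compared alone gave 2 higher synapse genes and 1 lower photoreceptor gene, and 1 lower photoreceptor gene was also found with an offset of 64, with quantiles over the 6 yng arrays and with the block. The block gave 1 higher periocular gene.

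Leaving out 1 array gave 1 to 2 lower dorsoventral genes, 1 to 2 higher ganglion cell genes, 1 to 4 lower photoreceptor genes (4 without yng retina replicate 1), 5 to 8 higher amacrine genes, 0 to 1 higher periocular genes and 0 to 1 higher muscle genes. As deposited, the list median turned to -0.007531 for proneural and -0.248 for immediate early genes, and the difference turned to -0.01863 for cxcr4b, -0.5051 for pou4f2, -0.4892 for sox8b, -0.02235 for gjb8 and -0.003676 for tnni2a.2. The causes of these shifts beyond the scale were not tested. With replicate as a block, the paired analysis, all 24 interactions of genes named by rule kept their direction and side of the threshold. The same held with limma's trend. Other settings lost some of the 24 calls. With the groups compared alone 8 no longer passed, with an offset of 1 it was 6, and after median scaling 3. As deposited 2 no longer passed, and likewise 2 with an offset of 64. Leaving out 1 array lost 1 to 4 of them.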

Other observations

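The genes fezf2 and pax8, which are listed with brain and ear genes, rose in the mutant retina along with pax2b and fgf8a. The gene pax8, a factor of the ear, kidney and midbrain boundary, read 112, 106 and 115 in yng retina, against 53.3, 52.4 and 54.4 in yng embryo, a difference of 1.37 (adjusted p = 4.62e-05). The gene pax2b read 256, 223 and 245 in yng retina, against 143, 147 and 177 in yng embryo. Retina and embryo arrays did not overlap in these 2 genes. These genes and fezf2 were picked from their list after their values were seen.

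Some hox genes went against their list, in which 2 of 42 (4.76%) rose, beside 21.4% of all probe sets. The gene hoxd3a read 165, 183 and 202 in yng retina, against 83.5, 152 and 94.1 in yng embryo. A dimmer hoxd3a probe set did not pass (0.17, adjusted p = 0.578), and differed by -0.32 as deposited. The gene hoxc11b read 555, 500 and 449 in yng retina, against 389, 318 and 369 in yng embryo. In contrast, hoxc8a read 16.8, 29.4 and 22.4 in yng retina, against 1778, 2049 and 2028 in yng embryo.

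Of 47 dimmer probe sets of the genes named by rule, 14, in 11 genes, differed in the other direction from the brightest one. Among them were those of asphd2, capn2l, rpe65a and hoxc8a. Of the 14, 5 passed the threshold.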
